A study of Mus musculus with 24 samples.

Results

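The distal (front) and proximal (rear) ends of the lower jaw of control mouse embryos at embryonic day 14.5 were compared. The comparison used 6 of the 24 arrays of the study, the 3 labelled as control distal mandible and the 3 labelled as control proximal mandible. The samples are named here distal 1 to 3 and proximal 1 to 3, after the replicate numbers in the labels. The other 18 arrays came from the control maxilla and from the mandible and maxilla of Alk5 mutants, also with 3 arrays for each end.

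All embryos were on a C57B6 background and came from matings of Wnt1cre;Alk5fl/+ with Alk5fl/fl mice. Alk5 is the type I TGF-beta receptor, and Wnt1-Cre removes a floxed gene in the neural crest. Mutants were identified by clefting of the palate together with calvarial defects, and controls were their littermates. The alleles of the controls are not given; every embryo of such a mating inherits at least 1 floxed allele, and whether a control carried Wnt1-Cre is not stated. Whether the samples of a group are different embryos, or pools of embryos, is not given in the labels. The p-values therefore measure the spread between these samples, which may be partly technical.

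The mandible forms from the mandibular part of the first pharyngeal arch, which is filled by neural crest mesenchyme and covered by ectoderm and endoderm. Signals from the covering epithelium and endothelin from the arch switch on different transcription factors along its length. The distal end forms the midline and the incisors, and the proximal end forms the molar region, the ramus and the jaw joint. At this stage Meckel's cartilage, membrane bone, tongue and chewing muscle, tooth germs and skin lie side by side, so a piece of jaw is a mixture of tissues.

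Values are log2 signals from RMA, a method that corrects, normalizes and summarises the probes of a probe set. Each gene is represented by 1 probe set, so levels are compared between samples and not between genes. A gene was tested when at least 3 of the 24 arrays had it above their own 40th percentile (a log2 level of 6.33 to 6.47), and values below that level are called below the filter level. Differences are distal minus proximal with the standard error (SE) of the limma fit. That SE holds the spread of the other groups too, so it can exceed the spread of the 6 arrays compared. A gene is called at a Benjamini-Hochberg adjusted p under 0.05, and levels of groups are given with the SD of 3 arrays. Differences in mixed tissue do not separate fewer cells of a type from less RNA per cell.

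The control mandible arrays resembled each other closely. The mean correlation of an array with its own group was 0.993 to 0.994 across all arrays of both ends, against 0.981 to 0.985 with the opposite end. Tissue labelled as bone carried markers of bone, cartilage, muscle, tendon, epithelium, vessels and leukocytes at both ends. The RMA values of each array had a median of 7.03 to 7.12.

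Distal and proximal mandible differed in 760 of 13942 genes tested (5.45%). Of these, 406 were higher distally (2.91% of all genes) and 354 proximally (2.54%). Counts of called members of the gene lists below are to be read beside these shares. In all 760 genes the distal and proximal arrays did not overlap, and over all genes tested this held for 31.9%. A lack of overlap therefore adds nothing to a call. The 12 largest distal differences were, in order, those of Alx1, Isl1, Sfrp4, Them5, Qrfpr, Krt1, Hpse2, Hand2, Krt13, Nts, Krtdap and Tmprss11a. They hold midline transcription factors (Alx1, Isl1, Hand2), a secreted Wnt antagonist (Sfrp4) and epithelial genes. The largest proximal differences were in Crh, Nr2f1, Shisa3, Sim2 and Barx1. A difference of at least 1 on the log2 scale was reached by 216 called genes, 146 of them higher distally and 70 proximally.

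The median difference over all genes was -0.01, a value that RMA holds near 0 because it gives the arrays a common distribution. The same-numbered samples of both ends deviated together, and a fit with the replicate number as a block called 1334 genes (9.57%), 662 distally (4.75%) and 672 proximally (4.82%). That block has an effect for each genotype and replicate number, shared by the mandible and maxilla arrays. Whether the numbers pair samples between the jaws was not tested. Of the 760 genes, 754 were also called with the block. The 760 fell to 394, 362, 452, 416 and 465 when distal 1, distal 2, proximal 1, proximal 2 or proximal 3 was left out.

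Several genes named below have a further probe set with a much smaller difference than the one reported. The smallest was 0.01 for Runx1, 0.02 for Bmp7, 0.08 for Nkd1, 0.12 for Apcdd1, 0.28 for Epcam, 0.37 for Them5, -0.09 for Nr2f2 and -0.21 for Sost, all of the reported sign. It was 0.165 for Dsc1, 0.175 for Tspan8, 0.105 for Ntrk2, 0.085 for Twsg1, -0.145 for Pax1 and -0.257 for Bhlha15, also of the reported sign. Of the 4 probe sets of Sp6, 1 had the opposite sign (-0.01). Sparc and Myod1 also had a probe set of the opposite sign (0.018 and 0.025).

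**Figure D1:**
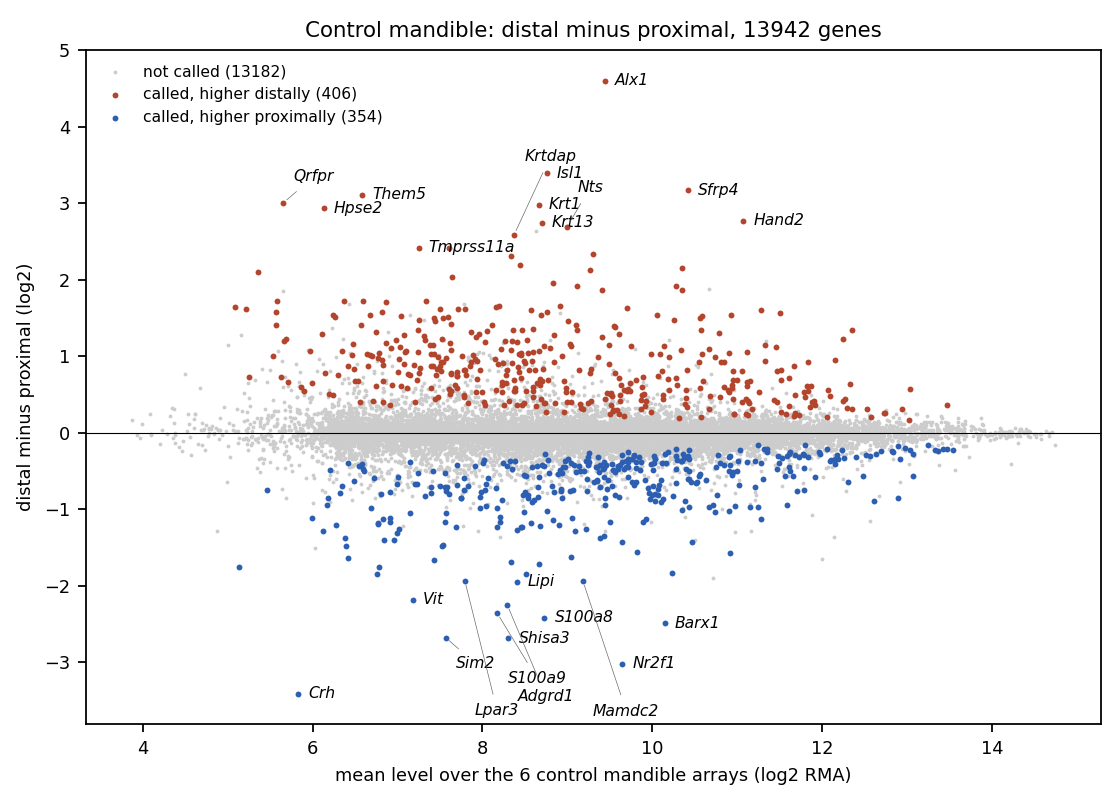
Distal minus proximal difference (log2) of 13942 genes in the control mandible against their mean level over 6 arrays. Red points (406) were called higher distally and blue points (354) higher proximally; Alx1 lies at 4.60 and Crh at -3.41, with the 12 largest called genes of each direction labelled.

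Alx1, a homeodomain factor needed for the midface, had the largest difference of all genes. Its levels were 11.85, 11.67 and 11.71 in distal 1 to 3 and 7.06, 7.06 and 7.31 in proximal 1 to 3. The distal arrays lay far above the proximal ones, by 4.60 ± 0.35 (SE, n = 3 and 3; adjusted p = 2.3e-07), a 24.3-fold difference that had the same sign in both of its probe sets.

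Isl1, a LIM homeodomain factor of the distal arch epithelium and mesenchyme, had levels of 10.41, 10.42 and 10.54 distally and of 7.10, 6.71 and 7.38 proximally. The groups did not overlap, and the difference was 3.39 ± 0.40 (SE; adjusted p = 4.23e-05), or 10.5-fold. Isl1 also marks sensory neurons. Of 11 sensory ganglion genes measured, 4 were below the lowest filter level at both ends: Tlx3, Scn9a, Pou4f1 (4.91 distally and 5.00 proximally) and Neurod1 (5.38 and 5.24). Others were well above it, such as Ntrk2 at 10.86 and 10.27 and Runx1 at 9.96 and 9.25. Of 10 sensory ganglion genes tested, 3 were called, all higher distally: Isl1, Ntrk2 and Runx1. The summed level of that list, on a linear scale and with Isl1 in it, was 4840 to 5269 distally and 2946 to 3009 proximally, and its part in the difference was not tested. The calls of Ntrk2 and Runx1 were lost without any array but distal 1 and but proximal 2 (adjusted p up to 0.0967 and 0.154).

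Hand2, a basic helix-loop-helix factor that endothelin signalling switches on in the ventral arch, had levels of 12.59, 12.35 and 12.43 distally and of 9.77, 9.72 and 9.55 proximally. All distal arrays were above all proximal ones. The difference was 2.77 ± 0.36 (SE; adjusted p = 0.000109), or 6.83-fold, and its 3 probe sets gave 1.54 to 2.77. Unlike Alx1 and Isl1, it was well above the filter level at the proximal end.

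Barx1, a homeodomain factor of the molar and joint mesenchyme, ran in the opposite direction. Its levels were 8.96, 8.81 and 8.93 distally and 11.33, 11.45 and 11.40 proximally. The groups lay far apart, with a difference of -2.49 ± 0.36 (SE; adjusted p = 0.000279), 5.62-fold higher proximally.

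Nr2f1 (COUP-TFI), an orphan nuclear receptor, was 8.39, 7.53 and 8.49 distally and 11.27, 11.16 and 11.05 proximally. Distal 2 was the lowest array, and no distal array reached a proximal one. The difference was -3.02 ± 0.34 (SE; adjusted p = 3.85e-05), 8.11-fold higher proximally. All 5 of these markers kept their calls whichever of the 6 arrays was left out.

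These markers are themselves DNA-binding proteins, so their promoters are shown as the sequences that the distal and the proximal set carry at their own starts. Each is the 150 bases before the RefSeq transcription start in build GRCm38.p6, 5′ to 3′ on the gene's strand. Capitals mark matches on either strand to TAAT (homeodomain core), CANNTG (E-box, the core bound by helix-loop-helix factors such as Hand2) or AGGTCA (the half-site of nuclear receptors such as Nr2f1). Nr2f1 has 2 starts in the table and the first is shown. Hand2 lies at chr8:57320833-57320982 (plus strand), Isl1 at chr13:116309689-116309838 (minus), Barx1 at chr13:48662886-48663035 (plus) and Nr2f1 at chr13:78198874-78199023 (minus). The promoter of Alx1 is not shown.
Hand2: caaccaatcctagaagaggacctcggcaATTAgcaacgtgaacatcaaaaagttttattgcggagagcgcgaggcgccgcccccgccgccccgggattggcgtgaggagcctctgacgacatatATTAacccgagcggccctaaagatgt
Isl1: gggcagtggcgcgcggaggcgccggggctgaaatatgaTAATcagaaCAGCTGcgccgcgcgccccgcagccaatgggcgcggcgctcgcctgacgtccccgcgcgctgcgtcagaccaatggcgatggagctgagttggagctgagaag
Barx1: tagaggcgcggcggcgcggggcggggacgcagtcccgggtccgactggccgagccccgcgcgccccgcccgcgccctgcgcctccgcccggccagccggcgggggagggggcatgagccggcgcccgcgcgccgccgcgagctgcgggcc
Nr2f1: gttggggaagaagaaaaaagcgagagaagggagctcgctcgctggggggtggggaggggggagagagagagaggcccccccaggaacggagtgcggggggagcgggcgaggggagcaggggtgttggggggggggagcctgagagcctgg

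Among 32843 RefSeq promoter windows of this length, 37.8% held a TAAT, 47.7% a CANNTG and 8.6% an AGGTCA. The distal genes held matches: Hand2 has 2 TAAT cores and Isl1 has 1 TAAT core and 1 E-box. The windows of the proximal genes Barx1 and Nr2f1 held 0 matches to any of the motifs. GC content was 56.0% for Hand2, 68.7% for Isl1, 87.3% for Barx1 and 70.0% for Nr2f1. A match is a description of the letters and not a binding site, and no match says only that these letters are not in the window.

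Of 14 distal patterning factors tested, 5 were called, all higher distally, and 9 were not called; the median of the list was 0.44. Alx1, Isl1 and Hand2, named above as markers, are 3 of the 5. The others were Msx2, a homeodomain factor downstream of BMP signals, and Foxf2, a forkhead factor downstream of hedgehog signals. Msx2 was 9.58, 9.76 and 9.89 distally and 7.88, 8.15 and 8.23 proximally, a difference of 1.66 ± 0.23 (SE; adjusted p = 0.000181). Foxf2 was 8.67, 8.54 and 8.62 distally and 6.99, 7.35 and 6.62 proximally, a difference of 1.62 ± 0.39 (SE; adjusted p = 0.016). Both were separated without overlap. Each has a second probe set with a small difference, 0.30 for Msx2 and 0.05 for Foxf2. The call of Foxf2 was lost without distal 1, distal 2, proximal 1 or proximal 3 (adjusted p up to 0.0854).

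Close relatives of these genes were not called in the fit of all arrays or with the replicate block. Msx1 was 12.22 ± 0.01 (SD) distally and 11.80 ± 0.07 proximally (adjusted p = 0.663), and Foxf1 was 10.45 ± 0.06 and 9.73 ± 0.26 (adjusted p = 0.503). Hand1, the partner of Hand2 in the ventral arch, was 7.78 ± 0.05 and 7.65 ± 0.10 (adjusted p = 0.694). Tbx3 (0.45, adjusted p = 0.414) and Alx4 (0.24, adjusted p = 0.245) did not pass the test either. In a fit of the 6 arrays alone, which called 1870 genes over all genes, Msx1 (0.000782), Foxf1 (0.0055) and Tbx3 (0.0138) were called. Hand1 (0.372) and Alx4 (0.129) were not called in that fit. Pax3, a neural crest and muscle precursor factor outside this list, was 4.38-fold higher distally, at 10.48, 10.35 and 10.17 against 8.36, 8.22 and 8.03 (2.13 ± 0.30 SE, adjusted p = 0.000202). It was named after its value was seen.

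**Figure D2:**
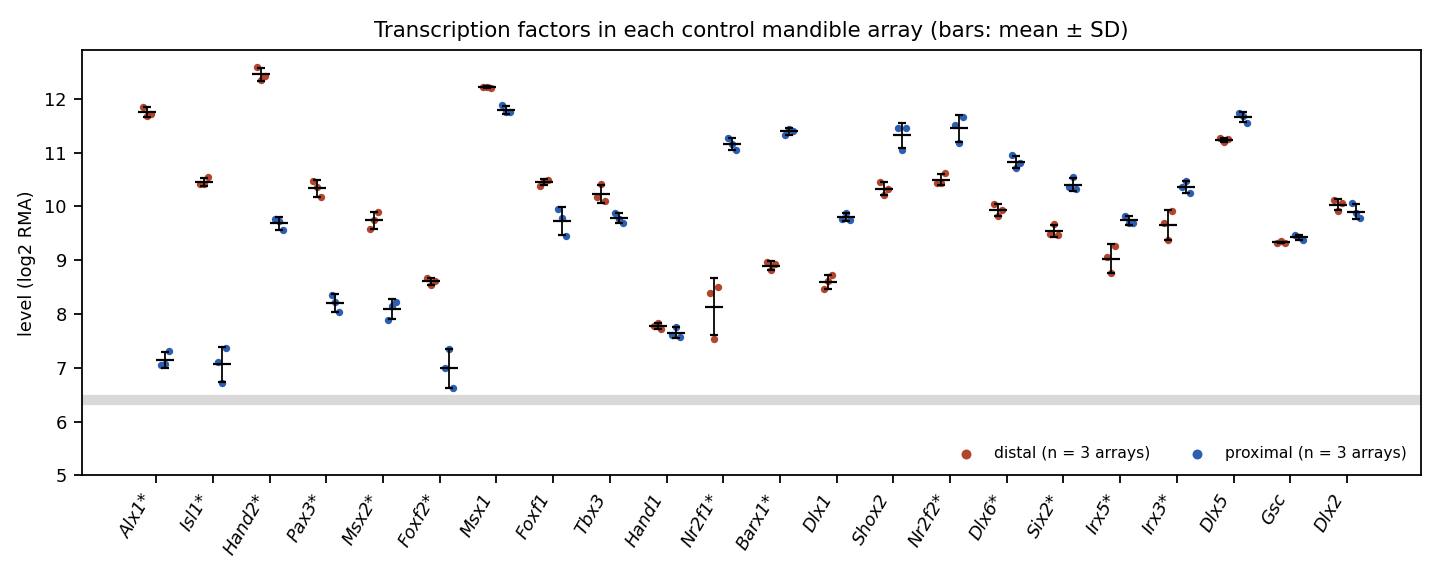
Levels (log2 RMA) of 22 transcription factors in each of the 3 distal (red) and 3 proximal (blue) control mandible arrays, with bars at the mean ± SD; an asterisk marks a called gene and the grey band the filter level. Alx1 and Isl1 are near the band only in the proximal arrays, Nr2f1 and Barx1 lie apart in the opposite direction, and Msx1, Hand1, Gsc and Dlx2 differ little.

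Of 18 proximal patterning factors tested, 6 were called, all higher proximally, and 12 were not called. By sign alone 11 were higher proximally and 7 distally, and the median was -0.52. Nr2f1 and Barx1, named above as markers, are 2 of the 6. After Nr2f1 and Barx1 came Nr2f2 (COUP-TFII, the paralogue of Nr2f1), at 10.44, 10.43 and 10.62 distally and 11.52, 11.17 and 11.66 proximally (-0.95 ± 0.20 SE, adjusted p = 0.00724). The homeodomain factors Six2 (-0.86, adjusted p = 0.0127), Irx5 (-0.71, adjusted p = 0.0204) and Irx3 (-0.70, adjusted p = 0.00831) followed with smaller differences. Shox2, a homeodomain factor of the proximal arch, was 10.33 ± 0.12 (SD) distally and 11.32 ± 0.23 proximally. It was not called in the fit of all arrays (adjusted p = 0.0885). It was called with the replicate block (0.035) and in a fit of the 6 arrays alone (0.00102). Without distal 1 or proximal 2 Six2 was no longer called (adjusted p up to 0.0661), nor was Irx3 without distal 2 (0.0703), nor Irx5 without any array but distal 3 (up to 0.135).

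Some other members of the list had no clear end. Gsc, a homeodomain factor of the arch, was 9.33 ± 0.02 distally and 9.42 ± 0.04 proximally, and Dlx2 was 10.03 ± 0.10 and 9.90 ± 0.14. Dlx1, the neighbour of Dlx2, was 8.46, 8.62 and 8.72 distally and 9.76, 9.88 and 9.75 proximally without overlap. It missed the threshold in the fit of all arrays (-1.19 ± 0.40 SE, adjusted p = 0.0929) and with the replicate block (0.0504). In a fit of the 6 arrays alone it was called (0.000112). Tfap2b, a neural crest factor outside the list, was 2.36-fold higher proximally (adjusted p = 0.00768). Whichever array was left out, its adjusted p stayed under 0.05, with 0.0494 as the highest.

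Endothelin signals from the arch switch on Dlx5 and Dlx6, which give the lower jaw its identity and activate Hand2. Of 13 genes of this programme tested, 1 was called higher distally (Hand2) and 2 proximally (Dlx6 and Bmper); the median was -0.02. Dlx6 was 10.05, 9.82 and 9.94 distally and 10.95, 10.72 and 10.81 proximally (-0.89 ± 0.25 SE, adjusted p = 0.0391). Dlx5 was 11.24 ± 0.04 (SD) and 11.66 ± 0.09 (adjusted p = 0.206). Dlx3 was 8.64 ± 0.05 and 9.20 ± 0.10 and was not called in the fit of all arrays (adjusted p = 0.164). It was called with the replicate block (0.0246) and in a fit of the 6 arrays alone (0.00181). Edn1, the ligand, was close to the filter level at both ends (6.64 ± 0.13 and 6.61 ± 0.10, adjusted p = 0.98). Hand2 was thus higher at the end where Dlx6 was lower. The Dlx6 call was lost without any 1 of the 6 arrays (adjusted p up to 0.146).

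Of 5 Hox genes tested, 0 were called with limma, and 8 of 12 measured were below the filter level at both ends. Hoxa5 (7.36 distally and 7.35 proximally) and Hoxb3 (7.36 and 7.37) were above it at both ends, as were Hoxb2 proximally (6.73) and Hoxc4 distally (6.58). Hox genes are known to be off in the arch that forms the jaw. Whether these signals are expression or background was not tested.

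Of 13 Wnt ligands tested, 5 were called, all higher distally, and 8 were not called; the median was 0.43. Wnt5a, a non-canonical ligand that drives outgrowth of the facial prominences, was 12.18, 12.13 and 11.94 distally and 10.66, 10.36 and 10.42 proximally. It lay without overlap 3.04-fold higher distally (1.61 ± 0.20 SE, adjusted p = 9.01e-05).

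Wnt4 was 10.11, 10.50 and 10.15 distally and 8.98, 8.51 and 9.07 proximally (1.40 ± 0.20 SE, adjusted p = 0.000214). Wnt16 was 9.22, 9.03 and 9.17 distally and 8.06, 7.93 and 7.76 proximally (1.22 ± 0.16 SE, adjusted p = 0.000122). Wnt6 (0.82, adjusted p = 0.00891) and Wnt7b (0.53, adjusted p = 0.0138), both ligands of epithelia, had smaller differences. Wnt4, Wnt6, Wnt7b and Wnt16 moved with the epithelial markers described below, and the part of epithelium in these differences was not tested. Wnt6 was no longer called without proximal 2 (adjusted p = 0.0504), and Wnt7b without distal 2, proximal 1 or proximal 2 (up to 0.0952).

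Of 12 genes that canonical Wnt signals switch on, 5 were called, all higher distally, and 7 were not called; the median was 0.30. Sp5, a direct target, was 8.01, 7.94 and 8.04 distally and 6.69, 6.66 and 7.19 proximally (1.15 ± 0.24 SE, adjusted p = 0.00569). Lef1, the transcription factor partner of beta-catenin, was 10.19, 10.09 and 10.16 distally and 9.54, 9.43 and 9.43 proximally (0.69 ± 0.12 SE, adjusted p = 0.0011).

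Nkd1 (0.60, adjusted p = 0.00512), Apcdd1 (0.69, adjusted p = 0.028) and Rnf43 (0.65, adjusted p = 0.0244) are feedback inhibitors. Axin2, the commonly used readout, was 8.98 ± 0.05 (SD) distally and 8.67 ± 0.27 proximally and was not called (adjusted p = 0.166). Rnf43 was below the filter level at both ends, and its call was lost without distal 1, 2 or 3 or proximal 2 (adjusted p up to 0.161). The call of Apcdd1 was lost without any 1 array (up to 0.118).

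Secreted Wnt antagonists divided between the ends. Of 16 secreted modulators, 2 were called distally (Sfrp4 and Sostdc1) and 2 proximally (Sost and Dkk1), with a median of -0.10. Sfrp4, which binds Wnt ligands, was 11.63, 12.28 and 12.11 distally and 8.61, 8.70 and 9.20 proximally, 8.99-fold apart (3.17 ± 0.46 SE, adjusted p = 0.000248).

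Dkk1, which blocks the Wnt co-receptor and is needed for the head to form, was 9.88, 9.93 and 9.47 distally and 11.36, 11.28 and 10.91 proximally. The proximal arrays were all higher (-1.43 ± 0.22 SE, adjusted p = 0.000414), and both probe sets had that sign. Sost, an inhibitor known from osteocytes, was 7.08, 6.97 and 7.36 proximally and below the filter level distally (5.86, 5.64 and 5.49; adjusted p = 5.71e-05). Sostdc1 was higher distally (0.92 ± 0.27 SE, adjusted p = 0.0484), a call lost without any 1 array (up to 0.157).

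Of 7 BMP ligands tested, 3 were called, all higher distally, and 4 were not called. By sign alone 5 were higher distally and 2 proximally, and the median was 0.30. Bmp4, which distal epithelium and mesenchyme exchange, was 11.36, 11.57 and 11.32 distally and 10.77, 10.91 and 10.76 proximally (0.61 ± 0.16 SE, adjusted p = 0.0259). Gdf10 (0.69, adjusted p = 0.0172) and Bmp7 (0.30, adjusted p = 0.033) had the same direction.

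Of 15 BMP receptors and response genes, Msx2 and Id4 were called, both higher distally. Id4 was 11.30, 11.36 and 11.40 distally and 10.61, 10.48 and 10.54 proximally (0.81 ± 0.16 SE, adjusted p = 0.00478). Of 10 BMP antagonists, Sostdc1 and Twsg1 (0.31, adjusted p = 0.00284) were called distally and Bmper proximally. Bmper was 9.35, 9.16 and 9.43 distally and 10.47, 10.52 and 10.44 proximally (-1.16 ± 0.28 SE, adjusted p = 0.0173). The calls of Bmp4, Gdf10 and Bmper were lost without any array but distal 3 (adjusted p up to 0.134, 0.0716 and 0.083), and that of Bmp7 without any array but proximal 2 (0.161).

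Retinoic acid is made from retinol in the tissue and carried to its nuclear receptors. Aldh1a2, which makes retinoic acid, was 9.04, 8.92 and 8.82 distally and 10.31, 10.26 and 10.49 proximally (-1.43 ± 0.16 SE, adjusted p = 3.85e-05), 2.69-fold higher proximally. Of 16 genes of the pathway tested, 2 were called proximally (Aldh1a2 and Rbp4, a carrier of retinol) and 1 distally (Crabp1, which binds retinoic acid in the cell). Crabp1 was 12.03 ± 0.05 (SD) distally and 11.56 ± 0.05 proximally (0.47 ± 0.10 SE, adjusted p = 0.00964). Rbp4 was 8.10, 8.13 and 8.11 distally and 8.74, 8.67 and 9.46 proximally, the last of which stood apart. Its call (-0.84, adjusted p = 0.0286) was lost without distal 1, 2 or 3 or proximal 3 (up to 0.189).

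Hedgehog ligands of epithelium and of cartilage ran in opposite directions. Shh, the ligand of oral and dental epithelium, was 11.49, 11.53 and 11.81 distally and 9.70, 9.87 and 9.62 proximally. The groups lay 3.68-fold apart. Shh was nevertheless not called in the fit of all arrays (1.88 ± 0.68 SE, adjusted p = 0.132). It was called with the replicate block (0.0357) and in a fit of the control mandible arrays alone (3.82e-05). Ihh, the ligand of growing cartilage, was higher proximally at 7.59, 8.03 and 7.63 against 7.13, 6.96 and 7.06 (-0.70 ± 0.14 SE, adjusted p = 0.00461). Ptch1 (0.18, adjusted p = 0.797) and Gli1 (-0.12, adjusted p = 0.905), both switched on by the pathway, were not called. Of 16 members tested, Foxf2 was called distally and Ihh proximally. Hhip was not called in the fit of all arrays (0.88, adjusted p = 0.105). It was called with the block (0.0091) and in the fit of the control mandible arrays alone (0.00113).

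The FGF, TGF-beta and Notch lists held few called genes in the fit of all arrays, near the share over all genes tested (5.45%). With the replicate block, which called 9.57% of all genes, 3 of 18 TGF-beta genes were called distally and 1 proximally. Of 16 Notch genes, 1 was called distally and 1 proximally with the block. Of 18 FGF pathway genes, 0 were called in either direction with limma; the median was 0.02, and 2 were called with the replicate block. Of 18 TGF-beta pathway genes, 1 was called: Tgfb2, at 11.43, 11.32 and 11.26 distally and 11.06, 10.95 and 10.83 proximally (0.39 ± 0.11 SE, adjusted p = 0.0383). It was not called without any array but proximal 1 (adjusted p up to 0.175). Of 16 Notch pathway genes, Hey2, a target factor, was called higher distally (1.26 ± 0.29 SE, adjusted p = 0.0127), a call lost without distal 1, distal 2 or proximal 3 (0.072).

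**Figure D3:**
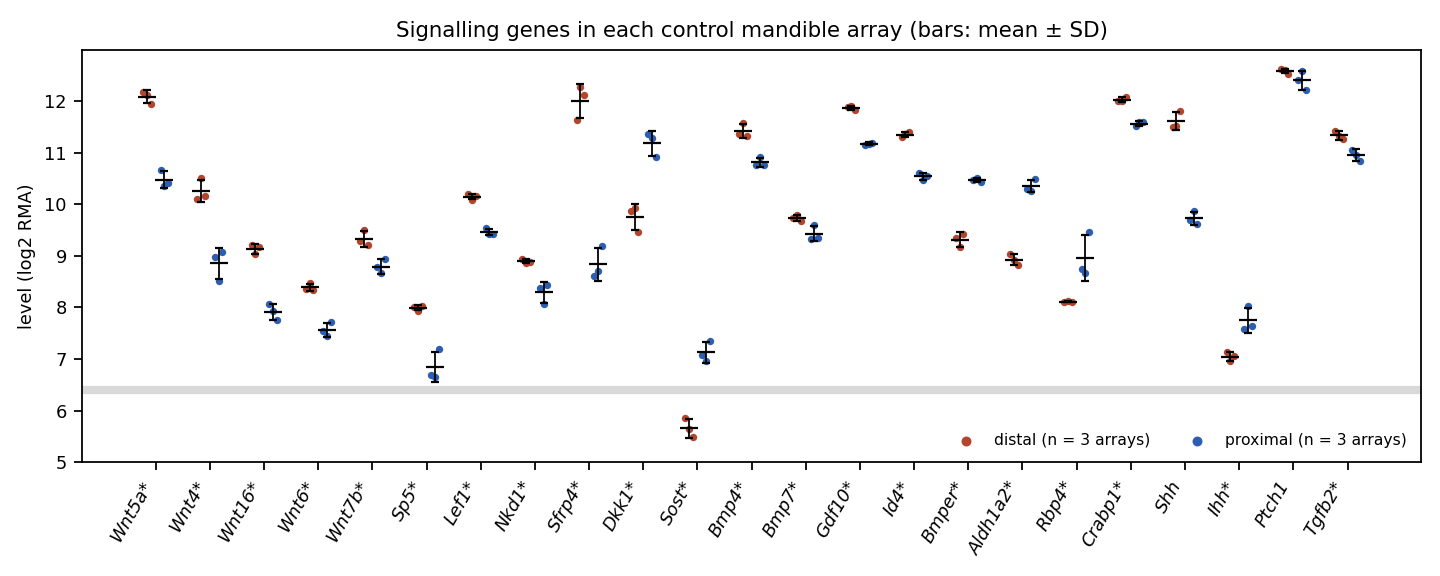
Levels (log2 RMA) of 23 signalling genes in each of the 3 distal (red) and 3 proximal (blue) control mandible arrays, with bars at the mean ± SD; an asterisk marks a called gene and the grey band the filter level. Wnt ligands, Sp5, Sfrp4 and Bmp4 lie higher in the distal arrays, and Dkk1, Sost, Bmper and Aldh1a2 in the proximal ones.

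Epithelial genes were the list with the most called members. Of 20 oral and skin epithelium genes tested, 14 were called, all higher distally; all 20 were higher distally, and the median was 1.22. Krt1, a keratin of differentiating skin, was 10.22, 9.90 and 10.34 distally and 7.37, 6.78 and 7.36 proximally (2.98 ± 0.41 SE, adjusted p = 0.000167). Cdh1 (E-cadherin) was 11.37, 11.50 and 11.19 distally and 10.08, 9.41 and 9.97 proximally (1.53 ± 0.19 SE, adjusted p = 5.71e-05). The basal layer genes Trp63 (1.50, adjusted p = 0.00789), Krt14 (1.56, adjusted p = 0.0313) and Epcam (1.15, adjusted p = 0.00913) had like values.

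The summed level of the 20 genes was 45328 to 55393 in the distal arrays and 14811 to 24272 in the proximal ones, so it did not overlap. Krt13, a keratin of the mouth lining, was 9.25, 10.91 and 10.05 distally and 7.29, 5.78 and 8.91 proximally, and Krt4 was 10.29, 10.80 and 10.34 against 8.39, 6.87 and 9.14. Proximal 2 was the lowest array for both of these and for Cdh1 and Trp63. Their calls (adjusted p = 0.0332 for Krt13 and 0.0176 for Krt4) were lost without distal 2, distal 3, proximal 1 or proximal 2 and without distal 1, distal 2 or proximal 2, with adjusted p up to 0.192 and 0.121. Krt14 lost its call without any 1 array (up to 0.143), Epcam without distal 2 or proximal 2 (0.058) and Trp63 without proximal 2 (0.0513).

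Krtdap, a product of differentiating keratinocytes, and Tmprss11a, a surface protease of epithelia, were among the 12 largest distal differences (2.59 and 2.42). Krtdap lost its call without distal 3 or proximal 2 (adjusted p = 0.00964, and up to 0.058). The largest distal differences also held genes of other kinds. Qrfpr, the receptor of a neuropeptide, was 7.17, 7.04 and 7.27 distally and below the filter level proximally (4.31, 4.23 and 3.92; 3.01 ± 0.12 SE, adjusted p = 4.53e-12). Nts, the precursor of neurotensin, was 10.18, 10.27 and 10.58 distally and 7.64, 7.47 and 7.84 proximally (adjusted p = 0.000268). Hpse2, a heparanase relative, and Them5, a thioesterase, were below the filter level proximally (2.94 and 3.11). How far these 4 genes follow the epithelium was not tested.

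Of 21 tooth germ genes tested, 5 were called, all higher distally: Bmp4, Lef1, Sostdc1, Sp6 and Inhba. By sign alone 17 were higher distally and 4 proximally, and the median was 0.50. Inhba, the activin subunit of dental mesenchyme, was 11.02, 11.09 and 10.94 distally and 10.12, 10.10 and 10.06 proximally (0.92 ± 0.17 SE, adjusted p = 0.00299). Its other probe set differed by 0.01. Sp6, a factor of dental epithelium, was 9.43, 9.35 and 9.69 distally and 8.22, 8.21 and 8.17 proximally (1.28 ± 0.30 SE, adjusted p = 0.0144), a call lost without distal 3, proximal 2 or proximal 3 (up to 0.0643). With the replicate block 10 members were called distally and 1 proximally. The epithelial markers above moved in the same direction, and their part was not tested.

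**Figure D4:**
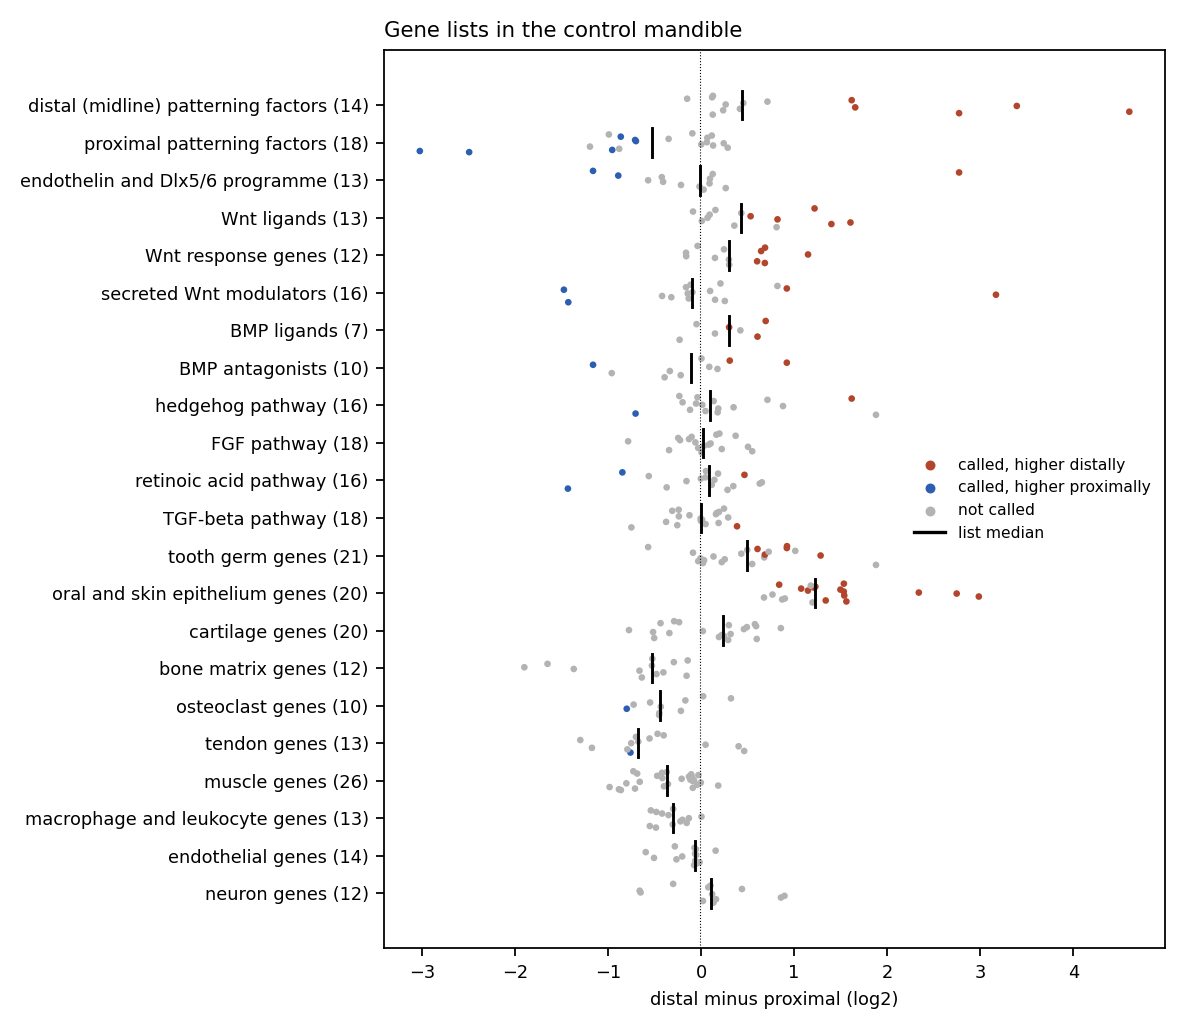
Distal minus proximal difference (log2) of every tested member of 22 gene lists in the control mandible, with the number tested in brackets; red and blue points were called, grey points were not, and the black bar is the list's median. The epithelium list has a median of 1.22 with all members above 0, and all 12 bone matrix genes lie below 0 without a call.

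Bone matrix genes were lower distally in 12 of 12 tested, and for each of them the 3 distal arrays were below the 3 proximal ones. Over all genes 31.9% had groups that did not overlap, and 17.2% had all distal arrays lower. The median was -0.53. In the fit over all 24 arrays 0 were called, with limma, and with the replicate block 4 were called, all proximally: Phex, Ifitm5, Col1a1 and Sparc. In a fit of the 6 mandible arrays alone, chosen for the lists after seeing the data, 10 were called, all proximally. That fit called 1870 genes over all genes, 47.0% of them higher distally. The fit of all arrays called 760 (5.45%), so counts from the 6 arrays alone are to be read beside the larger number.

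Phex, an enzyme of osteocytes that controls phosphate, was 9.30, 10.15 and 9.86 distally and 11.68, 11.74 and 11.59 proximally (-1.90 ± 0.81 SE, adjusted p = 0.227, and 0.00887 with the block). Ifitm5, a membrane protein of osteoblasts, was 10.79, 11.36 and 11.38 distally and 12.68, 13.05 and 12.74 proximally (adjusted p = 0.0897, and 0.0114 with the block). The summed level of the list was 77635 to 85556 distally and 112626 to 115408 proximally. Sp7 (osterix), which commits cells to bone, was called higher proximally, at 10.60, 10.66 and 10.77 against 11.73, 11.76 and 11.43 (-0.96 ± 0.28 SE, adjusted p = 0.0483); the call was lost without any 1 array (up to 0.163). Ocstamp, of osteoclast fusion, was the 1 called gene of 10 osteoclast genes, higher proximally (-0.80, adjusted p = 0.0144), a call lost without distal 1, distal 3 or proximal 2 (0.0898).

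Cartilage genes did not share a direction. Of 20 tested, 0 were called with limma in the fit of all arrays or with the replicate block, and the median was 0.23. Sox9, the master factor of cartilage, was 9.39 ± 0.09 (SD) distally and 9.10 ± 0.45 proximally. Col2a1, its main collagen, was 13.51 ± 0.05 and 13.32 ± 0.09, and Matn1 was 10.82 ± 0.30 and 11.60 ± 0.29. In the fit of the 6 arrays alone 8 were called distally and 5 proximally, beside 1870 genes called over all genes in that fit. The fit of all arrays called 760 genes (5.45%).

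Of 8 genes of hypertrophic cartilage, Ihh and Pth1r were called, both higher proximally. Pth1r, the receptor of parathyroid hormone-related protein, also marks osteoblasts (-0.75 ± 0.17 SE, adjusted p = 0.0107; lost without distal 1 or proximal 2, up to 0.0725). Of 8 joint and secondary cartilage genes, Prg4 (lubricin) and Wnt4 were called distally and Barx1 and Scx proximally. Prg4, which lubricates joint surfaces, was 7.92 ± 0.09 (SD) distally and 6.58 ± 0.12 proximally (1.34 ± 0.19 SE, adjusted p = 0.000188). Scx, the factor of tendon progenitors, was 7.12, 7.31 and 7.14 distally and 7.82, 8.17 and 7.85 proximally (-0.76 ± 0.19 SE, adjusted p = 0.021), a call lost without distal 1, distal 3 or proximal 2 (0.116), and its other probe set differed by -0.05.

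Muscle genes were lower distally in 25 of 26 tested with 0 called with limma in the fit of all arrays or with the block, and their median was -0.36. Their summed level was 35631 to 66195 distally and 44842 to 89688 proximally, so the ends overlapped. Myod1, which commits cells to muscle, was 8.61, 8.88 and 9.14 distally and 9.57, 9.49 and 10.15 proximally (adjusted p = 0.549). Endothelial genes (0 of 14 called, median -0.07), erythroid genes (0 of 6, median 0.16), neuron genes (0 of 12, median 0.11) and proliferation genes (0 of 13, median 0.02) showed no called difference in that fit.

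Macrophage and leukocyte genes were lower distally in 12 of 13 tested, with 0 called with limma, a median of -0.30 and a summed level of 6613 to 8099 distally and 8625 to 9904 proximally. With the replicate block Tyrobp (adjusted p = 0.00289, against 0.227) and Cd68 (0.018, against 0.227) were called. Beside them stood S100a8 and S100a9, the calprotectin subunits of neutrophils, among the largest proximal differences. S100a8 was 7.87, 6.08 and 8.61 distally and 9.74, 10.15 and 9.92 proximally (-2.42 ± 0.68 SE, adjusted p = 0.0418), and S100a9 was 7.49, 5.68 and 7.81 against 9.10, 9.65 and 9.31 (-2.36 ± 0.65 SE, adjusted p = 0.0368). The distal arrays were the more scattered and distal 2 was the lowest. S100a8 missed the threshold with the block (0.0503), and both calls were lost without any array but distal 3 (up to 0.257 and 0.225). The part of leukocytes in these differences was not tested.

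Further large proximal differences were spread over hormones, signalling receptors and matrix. Crh, corticotropin-releasing hormone, was 7.64, 7.54 and 7.41 proximally and below the filter level distally (3.96, 4.07 and 4.33; adjusted p = 0.0397). The 6 values fell into clearly separate groups, and the call was lost without any 1 array (up to 0.131). The SD of Crh was 0.188 distally and 0.115 proximally, against 2.31 in the proximal mutant mandible. Its SE of 0.949 holds the spread of that group too. Shisa3, which restrains Wnt and FGF receptors, was 7.12, 6.57 and 7.20 distally and 9.66, 9.99 and 9.30 proximally (-2.68 ± 0.42 SE, adjusted p = 0.000562), in both probe sets. Sim2, a helix-loop-helix factor, was 8.95, 9.09 and 8.69 proximally and below the filter level distally (adjusted p = 0.0052).

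Adgrd1, an adhesion receptor, was 4.76-fold higher proximally (adjusted p = 0.000507). Lipi, a phospholipase that releases lysophosphatidic acid, and Lpar3, a receptor of that lipid, were 3.85-fold and 3.81-fold higher proximally (adjusted p = 0.000177 and 0.00374). Lipi was 7.24, 7.42 and 7.65 distally and 9.48, 9.49 and 9.17 proximally, and Lpar3 was 6.70, 6.88 and 6.90 against 8.83, 8.94 and 8.50. Both were separated by well over their spread. The matrix proteins Vit (-2.18) and Mamdc2 (-1.94) completed the 12 largest (adjusted p = 0.000248 and 0.000349).

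The control maxilla, cut into the same ends, shows which of these differences were shared between the jaws. Of the 760 genes, 614 had the same sign in the maxilla and 146 the opposite sign. Genes called in both jaws with the same sign numbered 260, which is 34.2% of the 760 and 17.1% of the 1518 called in the maxilla. Opposite signs were called in 17. The difference between the jaws was itself called in 309 genes (2.22% of all tested), 144 with a more distal value in the mandible and 165 with a less distal one. Of the 309, 129 were among the 760. The 309 became 460 without distal maxilla 2, 403 without proximal maxilla 3 and 149 to 198 without any 1 of the other 10 arrays.

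Hand2, Isl1 and Alx1 had the largest positive differences between the jaws. Hand2 was 5.11, 5.82 and 5.62 in the distal maxilla and 7.38, 7.18 and 6.57 in the proximal maxilla, so the end difference there was -1.53 against 2.77 in the mandible (difference 4.30 ± 0.51 SE, adjusted p = 0.000138). All 3 distal maxilla arrays were below the filter level, so the sizes of -1.53 and 4.30 rest in part on a signal that may be background. Isl1 was 9.74, 9.24 and 9.49 distally and 11.14, 9.90 and 9.10 proximally in the maxilla, with overlapping ends (difference 3.95 ± 0.56 SE, adjusted p = 0.000945). Alx1 was high at both maxillary ends, at 12.30, 12.28 and 11.72 distally and 11.09, 11.45 and 11.41 proximally (difference 3.82 ± 0.50 SE, adjusted p = 0.000337). The proximal mandible was thus the low group for Alx1 among the 4 control groups.

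Sfrp4 (difference 3.14), Qrfpr (2.79) and Foxf2 (2.78) came next. Qrfpr was below the filter level in all 6 maxilla arrays. Sfrp4 differed by 0.03 between the ends of the maxilla, and Foxf2 by -1.16, with its distal maxilla mean (6.10) below the filter level. All 6 of these differences between the jaws were kept whichever of the 12 arrays was left out.

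On the negative side were genes of cornified skin, all higher distally in both jaws and more so in the maxilla. Dsc1 and Dsg1a, cadherins of desmosomes, had differences of -2.80 and -2.75, and Asprv1 (a skin protease), Lipm (an epidermal lipase) and Krt10 had -2.72, -2.57 and -2.21. In the maxilla their ends were 4.42, 4.79, 4.23, 3.58 and 3.75 apart. Dsc1 and Lipm were below the filter level at both ends of the control mandible, and Dsc1, Dsg1a and Lipm in the proximal maxilla (means of 4.66, 4.85 and 5.20). The median of the epithelium list was 2.32 in the maxilla and 1.22 in the mandible.

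Left out singly, 9 of the 12 arrays ended the difference between the jaws for Dsc1, Dsg1a and Krt10 (adjusted p up to 0.0744, 0.105 and 0.114). The call remained without distal maxilla 2 or proximal maxilla 3 for all of these, and without proximal mandible 3, proximal mandible 2 and distal mandible 3 for Dsc1, Dsg1a and Krt10 respectively. Asprv1 lost it without distal mandible 1, proximal mandible 3, distal maxilla 3 or proximal maxilla 1 or 2 (up to 0.0658). Lipm kept it throughout. In the control mandible itself the end differences of Dsc1, Asprv1 and Lipm were lost without any 1 array (adjusted p up to 0.132, 0.152 and 0.14), that of Dsg1a without distal 2 or proximal 2 (0.076), and that of Krt10 without any array but distal 2 (0.102).

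Nr2f1 differed between the jaws by -2.28 ± 0.48 (SE, adjusted p = 0.0157). In the maxilla it was high at both ends, at 10.56, 11.03 and 10.56 distally and 11.36, 11.79 and 11.20 proximally. The distal mandible was thus the low group. The call was lost without distal mandible 2 (adjusted p = 0.0533). Irx3 and Irx5, higher proximally in the mandible, had the opposite sign in the maxilla (0.49 and 0.72), with differences between the jaws of -1.19 and -1.43 (adjusted p = 0.00596 and 0.00475).

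Barx1 was higher proximally in both jaws, with differences of -2.49 in the mandible and -2.21 in the maxilla. The difference between the jaws was -0.29 ± 0.52 (SE, adjusted p = 0.909). Wnt5a (2.26 in the maxilla), Msx2 (1.50), Pax3 (1.31) and Aldh1a2 (-1.53) also had the mandible's sign, and the differences between the jaws were not called (adjusted p = 0.331, 0.921, 0.446 and 0.935). A missed threshold does not show equal differences, and the SE of these was 0.23 to 0.43.

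**Figure D5:**
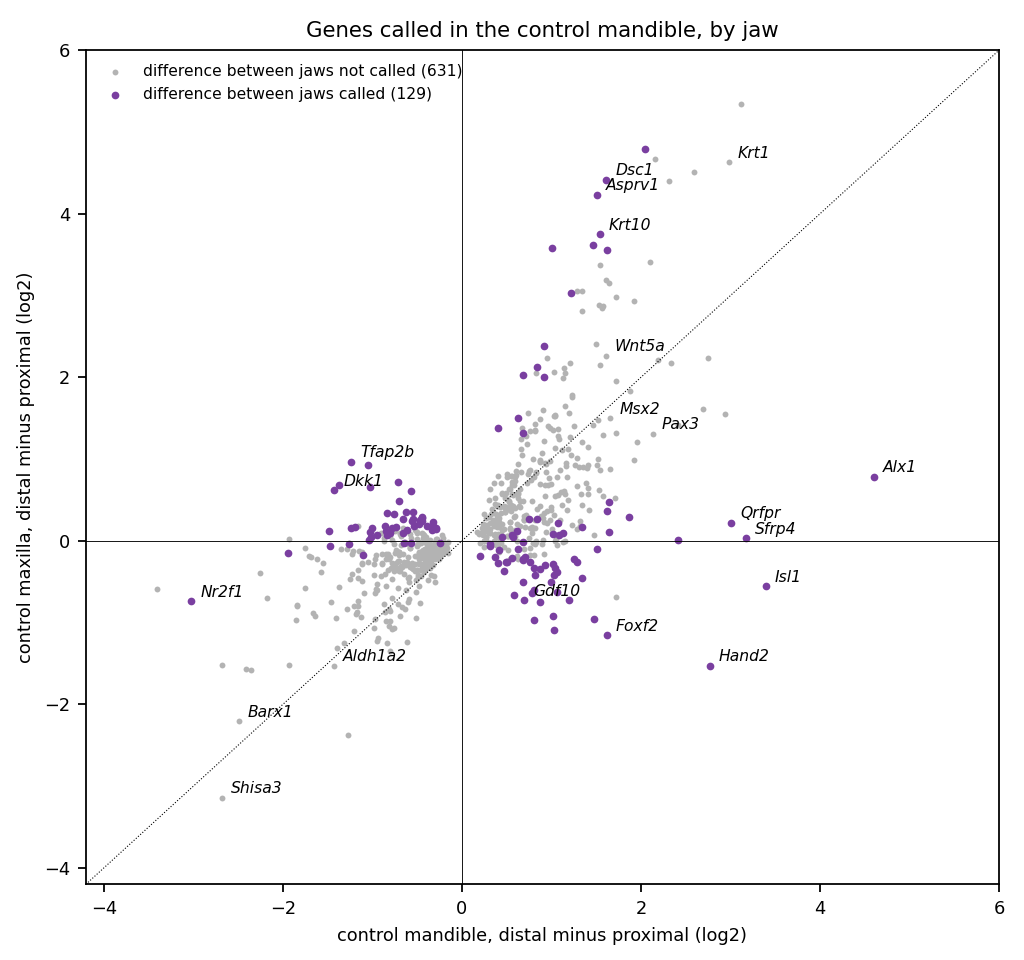
Distal minus proximal difference (log2) in the control maxilla against that in the control mandible for the 760 genes called in the mandible; purple points (129) had a called difference between the jaws, and the dotted line marks equal values. Hand2, Isl1, Alx1 and Sfrp4 lie far to the right near or below 0 in the maxilla, skin genes lie above the line, and Barx1, Msx2 and Aldh1a2 lie near it; the points were chosen for their mandible values, which places them away from 0 on that axis.

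In the mandible of Alk5 mutants most end differences had the same sign. Of the 760 genes, 724 did, and 403 were called there with the same sign (53.0% of the 760 and 32.0% of the 1258 called in the mutant mandible). Alx1 differed by 5.01, Hand2 by 1.90, Isl1 by 1.98, Barx1 by -3.06 and Nr2f1 by -3.73 in the mutant mandible, and for none of these 5 was the difference from the control called (adjusted p = 1, 1, 0.729, 1 and 1). The end difference of controls and mutants differed in 15 genes (0.108%). Of these, 3 were among the 760: Dkk1, Tfap2b and Tspan8. The 15 became 1 without control distal 2 or control proximal 2, 2 without control distal 1 or mutant distal 2, 7 without mutant proximal 1, 8 without control proximal 1 and 29 without mutant proximal 3.

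Dkk1 turned around. In the mutant mandible it was 10.69, 10.68 and 10.43 distally and 9.36, 9.74 and 10.16 proximally, a difference of 0.84 against -1.43 in controls (-2.27 ± 0.31 SE, adjusted p = 0.00681). The proximal controls were above all mutant arrays and the distal controls below the distal mutant ones. The call stayed under the threshold whichever of the 12 arrays was left out.

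Tfap2b was 9.99, 10.10 and 9.78 distally and 9.09, 9.67 and 8.89 proximally in mutants, against 7.85, 7.35 and 7.47 and 8.99, 8.71 and 8.68 in controls (-1.97 ± 0.37 SE, adjusted p = 0.0388). The distal end of the control mandible was the low group. The call held only without mutant distal 3 or mutant proximal 2 (adjusted p up to 0.151 with others left out). Tspan8, a tetraspanin of epithelia, was 9.15, 9.66 and 8.57 distally and 8.42, 7.86 and 7.92 proximally in controls, and 6.74, 6.61 and 6.65 and 7.50, 7.97 and 7.92 in mutants (2.19 ± 0.35 SE, adjusted p = 0.0176). The difference was lost without control distal 1 or 2, control proximal 2 or mutant distal 2 (up to 0.0726), and the end difference in the control mandible (1.06, adjusted p = 0.0138) without distal 1, distal 2, proximal 2 or proximal 3 (0.107).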

How the data were processed

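Total RNA from each end of the mandible and maxilla was purified with a column kit and made into biotin-labelled cRNA from 5 µg, 1 single-colour mouse array per sample, per the labels' protocols. Per the submitters' processing notes, the authors deposited RMA values, here taken as log2 since they run from 3.29 to 14.86 (no version is given). They come with no detection calls or probe positions. The number of arrays limits the precision.

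Of 45101 probe sets, 34945 carried 1 gene symbol in the array annotation, 932 several, 9160 none, and 64 were controls. A RefSeq table (GRCm38.p6) matched 34741 and changed 0 names. For each of 18193 genes the probe set with the highest mean over the 24 arrays was kept, and 13942 passed the filter. Group means were modelled over the 24 arrays by limma 3.58.1 under R 4.3.3, with eBayes and trend, two-sided tests and Benjamini-Hochberg adjustment over all genes tested. The distal minus proximal differences were also compared between control mandible and control maxilla and between control and mutant mandible. The fit was tested on simulated data. Python 3.11.15, pandas 2.3.3 and matplotlib 3.10.9 were used.

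Residuals of same-numbered distal and proximal control mandible samples correlated at 0.681, 0.329 and 0.501, so the numbers pair the samples, as a reading of the data. The replicate block, array weights, other filters, probe set means, a second quantile normalization, the 6 arrays alone and leaving out each array were tried as alternatives. The members, gene lists and tests were chosen with earlier results of these data known. Named genes are the 12 called genes of largest change in each direction whose arrays do not overlap, 6 in each direction for the differences between jaws and genotypes, the 5 markers, up to 4 members with the largest statistic per list, and any measured member of the patterning, endothelin and signalling lists. Other names were chosen after their values were seen. Of 570 list genes, 526 were measured, and the others are not analysed here.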

Additional observations from a re-analysis of the deposited data

Results flagged for a closer look

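The end difference of these genes, distal minus proximal, differed between the control mandible and the control maxilla by the test of that difference in the fit of all arrays (adjusted p under 0.05). Values are mandible minus maxilla on the log2 scale.

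Factors of patterning led the list. Hand2 (4.30), Isl1 (3.95), Alx1 (3.82) and Foxf2 (2.78) were more distal in the mandible, as were Sfrp4 (3.14), Qrfpr (2.79), Foxd1 (1.80), Tspan8 (1.69), Gdf10 (1.42), Id4 (1.41), Ntrk2 (1.25) and Prg4 (1.17). The end difference in the maxilla was called with the opposite sign for 8 genes: Hand2 (-1.53), Gdf10 (-0.73), Ntrk2 (-0.67), Id4 (-0.60), Tfap2b (0.97), Pax1 (0.93), Irx5 (0.72) and Irx3 (0.49).

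The genes less distal in the mandible were Nr2f1 (-2.28), Tfap2b (-2.21), Dkk1 (-2.04), Pax1 (-1.98), Shox2 (-1.94), Lipi (-1.79), Irx5 (-1.43), Sost (-1.41), Irx3 (-1.19), Pth1r (-1.08) and Bhlha15 (-0.93). Skin, dental and Wnt response genes were Dsc1 (-2.80), Dsg1a (-2.75), Asprv1 (-2.72), Lipm (-2.57), Krt10 (-2.21), Sostdc1 (-1.46), Apcdd1 (-1.34) and Lef1 (-0.64). Group means were below the filter level in the maxilla for Sost, Qrfpr and Prg4 at both ends, for Hand2 and Foxf2 distally, and for Dsc1, Dsg1a and Lipm proximally.

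Several of these calls depended on single arrays. Lef1 and Foxd1 lost theirs without any 1 of 10 of the 12 arrays (adjusted p up to 0.118 and 0.131). Lef1 kept it without distal maxilla 2 or proximal maxilla 3, and Foxd1 without proximal mandible 2 or proximal maxilla 3. Sostdc1 kept it only without distal maxilla 2 or proximal maxilla 1 or 3 (up to 0.125), and Shox2 only without these or proximal mandible 2 (up to 0.0863). Prg4 lost it without distal or proximal mandible 2 or 3, distal maxilla 3 or proximal maxilla 1 (0.0744). Pth1r lost it without distal mandible 1, proximal mandible 2, distal maxilla 3 or proximal maxilla 1 or 2 (0.0696), and Lipi without distal maxilla 3 or proximal maxilla 2 (0.0537).

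Between the control and the mutant mandible the end difference differed for Dkk1 (-2.27), Tspan8 (2.19) and Tfap2b (-1.97), with control minus mutant as the direction.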

How the results depend on the processing

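The count of 760 genes became 2547 with array weights, 1870 in the 6 arrays alone, 216 with a log2 difference of at least 1 added, and 362 to 528 with 1 array left out. With the replicate number as a block it became 1334 (fixed), 1265 (random) and 3266 (in the 6 arrays alone). The 309 genes that differed between the jaws became 875 with array weights, 694 and 690 with the fixed and random block, and 149 to 460 with 1 array left out. The 15 that differed from the mutant became 39, 56, 58 and 1 to 29 under the same settings. The replicate numbers of the maxilla did not all pair (residual correlations 0.373, 0.137 and 0.031). Under the other settings the counts stayed within 1.5 times. Of 89 called genes named, 88 kept their call with the fixed block and 43 whichever array was left out. In any setting 0 changed sign. The ends of all 760 called genes do not overlap, so leaving out or weighting arrays could not change a sign. Edn1, not called, became -0.014 with array weights and ran from -0.043 to 0.071 with 1 array left out, below 0 without distal 1 or proximal 2. The cause of these changes was not tested. Signals near the filter level, as for Crh, Qrfpr and Sost at 1 end, give no fold.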

Other observations

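Other gene groups of the control mandible also held called members, to be read beside the 5.45% called over all genes tested. Of 18 axon guidance ligands, 3 were called, all higher distally. They were Sema3e (1.11 ± 0.16 SE, adjusted p = 0.000279), Efnb2 (0.72 ± 0.09 SE, adjusted p = 4.23e-05) and Sema3d (0.60, adjusted p = 0.0205). By sign alone 11 were higher distally and 7 proximally, and the median was 0.06. Efnb2, an ephrin of vessels and crest, was 12.11, 11.95 and 11.84 distally and 11.35, 11.17 and 11.22 proximally. The end differences of Sema3e, Efnb2 and Sema3d in the maxilla were 1.11, 0.71 and 0.81. Sema3d lost its call in the mandible without distal 1, proximal 2 or proximal 3 (up to 0.123).

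Of 7 salivary gland genes, Bhlha15, a factor of secretory cells, was 7.12, 6.93 and 6.96 distally and 7.82, 7.80 and 7.73 proximally (-0.78 ± 0.12 SE, adjusted p = 0.000613). Cited1, a transcriptional co-factor, was higher proximally too (-1.18, adjusted p = 0.02), a call lost without distal 1 or 2 or proximal 2 or 3 (0.119). Of 6 fat cell genes, Ppargc1a, a regulator of mitochondria, was higher distally (0.92 ± 0.20 SE, adjusted p = 0.00763).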
